A study of Danio rerio with 2 samples.

Results

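The genes described here build, cap, bind and take apart actin filaments. They were taken from a table of 32105 zebrafish genes by their names, through a pattern that covers the Arp2/3 complex, its activators, capping proteins, profilins, cofilins, coronins and related families, and 105 genes matched. By role these were 15 genes of the Arp2/3 complex, 10 nucleation promoting factors, 2 formins, 15 barbed-end cappers, 5 elongation factors, 7 monomer binders, 13 genes of filament disassembly, and 6 crosslinkers and bundlers. The remaining 32 were given no actin role here. Most share only the start of a name with the pattern, mainly genes with a pleckstrin homology domain. The pleckstrin genes *plek* and *plek2* are also among them. These 32 are called matched by name alone and are kept apart below.

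The study used embryos carrying a *gata1*-EGFP transgene, in which the promoter of a red cell transcription factor drives a green fluorescent protein, and sorted the positive cells at 22 hours post fertilization. One group was *add1* knockout embryos and the other their siblings, labelled wild type, with 1 library in each and the transgene in both. The sorted cells are labelled erythroblasts, and the sources used here do not say how many embryos were pooled. The comparison was set up to look at what adducin 1 does in the nucleus, at an age when the mutants did not yet visibly lack red cells.

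An actin filament grows mainly at its barbed end. Nucleators start new filaments, the Arp2/3 complex as side branches and formins as unbranched ones, while profilin and thymosin beta hold the pool of monomers from which both draw. Capping proteins close the barbed end: CapZ does so in most cells, and adducin does so on the very short filaments that tie the spectrin network to the red cell membrane. *add1* encodes adducin 1, so the genes of the other cappers were compared with those of the nucleators.

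The library of the mutant had 5956344 counts and that of the siblings 6157792. Levels are given as CPM (a gene's counts per 1000000 counts of its library), and levels of different genes are compared as FPKM, which also divides by gene length. Ratios are mutant over sibling CPM, each with an exact 95% interval that covers the counting of reads only. With a single library per genotype there is no replicate check, no test and no p-value, and the effect of genotype and that of sample preparation cannot be told apart. Genes with at least 10 CPM in either library are called measured, and those whose CPM + 1 differed at least 2-fold are called higher or lower. The median log2 ratio of all 9672 measured genes was 0.13. It was -0.08 when libraries were scaled by TMM, a method that sets the bulk of genes near 0. This scaling lowers every log2 ratio of CPM by 0.20, so values below are read against the median of all genes. *add1* itself was at 3.02 CPM in the mutant library and 189 CPM in that of the siblings.

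Defining red cell genes were abundant in both libraries, with *gata1a* at 623 against 834 CPM and the embryonic globin *hbbe1.1* at 17003 against 35404 CPM, mutant library first as in all pairs below. The 14 erythroid markers summed to 40018 against 82866 CPM, and 6 of 14 were at least 2-fold lower. Markers of several other tissues were higher in sum. Those of skeletal muscle summed to 10114 against 3136 CPM, with 16 of 24 measured genes at least 2-fold higher. Of these 24 muscle markers 4 had counting intervals below 1, among them *myhz2* (76.4 against 104 CPM), and *smyhc1* alone held 2748 against 541 CPM. Those of epidermis and periderm summed to 3533 against 2139 CPM (6 of 14 higher), those of hatching gland and notochord to 6072 against 2688 CPM (9 of 12 higher), and neural ones to 409 against 169 CPM (4 of 7 higher). In the hatching gland and notochord sum *klf17*, which did not differ beyond counting error, alone held 2059 against 2027 CPM. Leukocyte markers summed to 2207 against 2275 CPM, with 1 of 21 higher and 6 lower, and *marco*, with 0 against 1 count, not measured. Thrombocyte markers summed to 202 against 351 CPM, with 1 of 5 higher and 2 lower and *mpl*, with 0 against 1 count, not measured. Of the 12 measured endothelial markers 0 passed 2-fold. Beside the counts of all these lists, 10.1% of all measured genes were at least 2-fold higher and 2.56% lower. The part of these markers' cells in the values below was not tested, and in bulk RNA fewer cells of a type cannot be told apart from less RNA per cell.

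**Figure D1:**
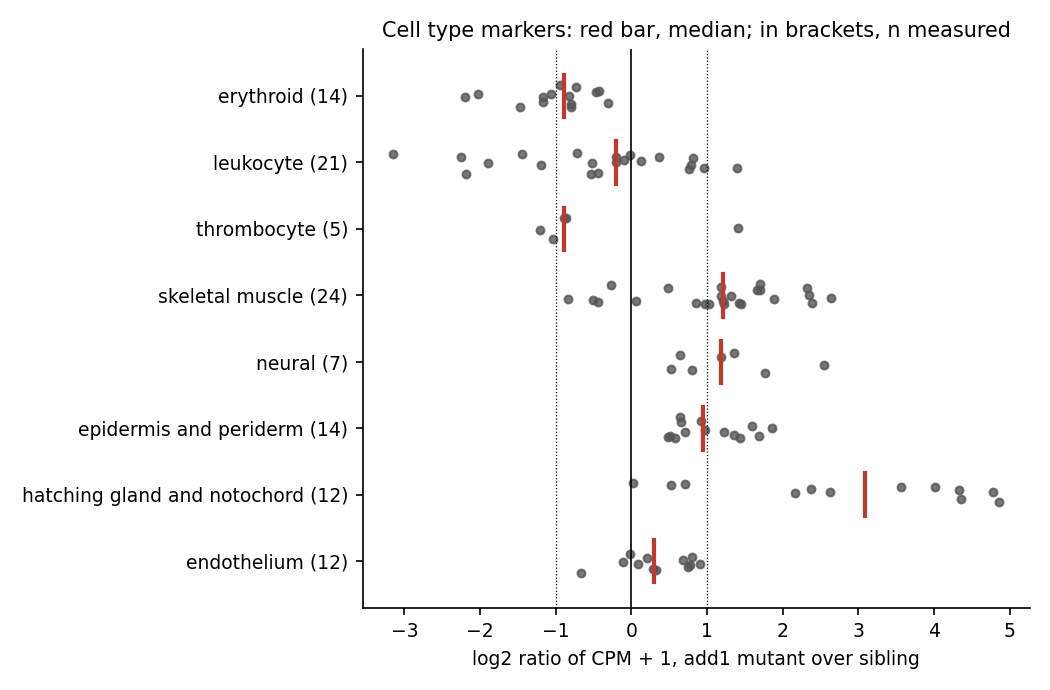
Log2 ratio of CPM + 1, mutant over sibling library, for each measured marker gene (points) of 8 cell types, with the number measured in brackets and the median of each list as a red bar; dotted lines mark 2-fold. All 14 erythroid markers lie below 0, while the muscle, neural, epidermal and hatching gland medians lie above 0.9.

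Together the 105 genes held nearly the same share of each library, 0.561% against 0.556% of counts. Of them 62 were measured, 43 stayed below 10 CPM in both libraries, and 5 of these had 0 counts in both. Of the 62, 8 were at least 2-fold higher in the mutant library (12.9%, where 10.1% of all measured genes were) and 1 was lower (1.61%, against 2.56% of all measured genes). These shares are close to the background. The counting interval lay above 1 for 21 of the 62 and below 1 for 13, while it did so for 40.0% and 21.9% of all measured genes. The higher genes were *wasf3b*, *cttn*, *gsna*, *twf2a*, *pfn2l*, *cfl1l*, *coro2a* and *plekhn1*, and the lower one was *enah*. With TMM scaling 5 of 61 were higher and 5 lower, against 7.05% and 4.52% of all measured genes: *cttn*, *pfn2l* and *cfl1l* dropped out, and *coro1a*, *diaph3*, *plek* and *plekhg7* were added on the lower side. The minimum matters for such counts, since 9 of the 62 reached it in the mutant library alone and 3 in the sibling library alone. This fixed the direction of their ratios, among them those of the called genes *twf2a*, *coro2a*, *plekhn1* and *enah*. The median log2 ratio of the 62 was 0.12, beside 0.13 for all genes.

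**Figure D2:**
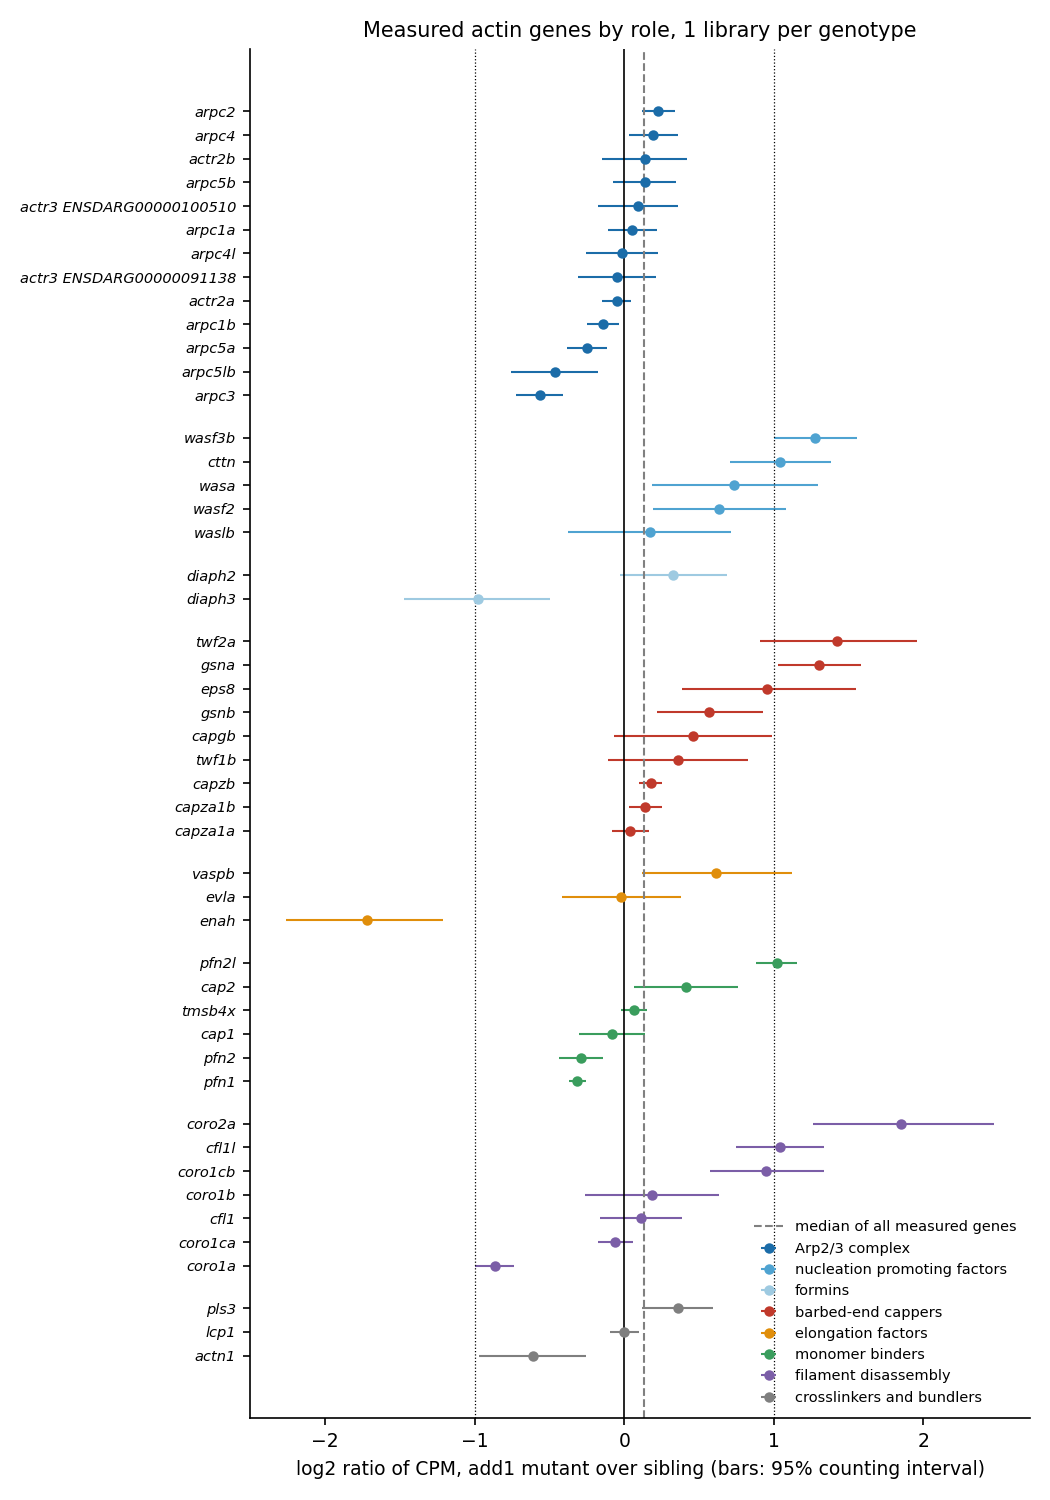
Log2 ratio of CPM, mutant over sibling library, of the 48 measured genes with an actin role, grouped by role; points are ratios, bars are exact 95% counting intervals, the dashed line is the median of all measured genes and dotted lines mark 2-fold. CapZ and most Arp2/3 genes lie near 0, with *arpc3* and *arpc5lb* further to the left. The promoting factors, the other cappers and some paralogs of profilin, cofilin and coronin lie to the right and *enah* to the left.

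The abundant genes of the set differed little and the scarce ones differed more. Of 17 genes with an actin role and a mean of at least 100 CPM, a level chosen after the values were seen, 1 (*pfn2l*) passed 2-fold, with a median log2 ratio of 0.00. Of the 31 measured below this level 7 passed, with a median of 0.33. All genes of the table showed a like split, 7.47% at or above this level and 14.1% below it past 2-fold in either direction. Their median log2 ratios were -0.004 and 0.18. For some of the 31 scarcer genes the minimum of 10 CPM fixed the direction, among them *twf2a*, *coro2a* and *enah* of the 7 past 2-fold. More of the 31 reached the minimum through the mutant library alone than through the sibling library alone, which can raise their median. *tmsb4x*, a thymosin beta that binds actin monomers, had the highest level of the set, 552 against 527 FPKM, rank 69 of all genes in both. By the mean of the libraries *pfn1*, a profilin, came next at 226 against 282 FPKM, and then *capzb*, the beta subunit of CapZ, at 168 against 148 FPKM.

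**Figure D3:**
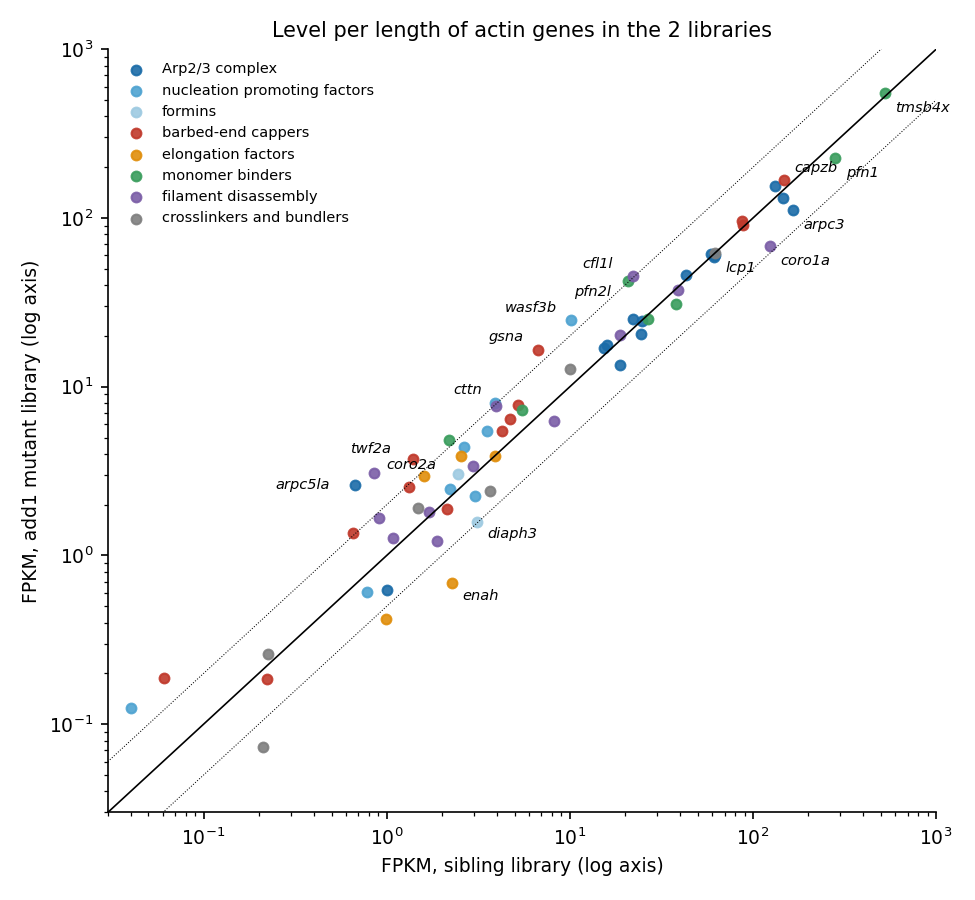
FPKM (level per gene length and library size) of each gene with an actin role that had counts in both libraries, sibling library on the horizontal and mutant library on the vertical log axis, coloured by role; the solid line marks equal levels and dotted lines 2-fold. No gene above 50 FPKM in both libraries lies outside the 2-fold lines, and *coro1a* comes closest to them among these.

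The Arp2/3 complex, a stable assembly of the actin-related proteins Arp2 and Arp3 with 5 further kinds of subunit, differed little as a whole. None of its 13 measured genes passed 2-fold, where 10.1% of all measured genes were higher and 2.56% lower. With these shares few calls were to be expected among 13 genes. Log2 ratios lay above 0 for 6 and below 0 for 7, where 60.8% and 39.2% of all measured genes lay. The median was -0.02, range -0.56 to 0.23. With TMM scaling the median was -0.21, that of all genes being -0.08. Of the 13, 1 (*arpc2*) then stayed above 0, where 43.9% of all measured genes lay. The genes of the complex summed to 1453 against 1500 CPM, a ratio of 0.969 (0.941 to 0.998). The Arp2 genes *actr2a* and *actr2b* together were at 76.0 against 76.6 FPKM. Arp3 was at 107 FPKM in both, nearly all of it from the 2 genes named *actr3* (ENSDARG00000091138 and ENSDARG00000100510), which lie near each other on chromosome 9 and whose shared reads could not be traced. Neither core subunit thus differed beyond its counting interval, with ratios of 0.979 (0.919 to 1.04) and 1.01 (0.886 to 1.14). The FPKM of the 2 *actr3* genes imply lengths of 656 and 873 bases, beside 1620 bases for *actr3b*. Their summed level per length may be too high for a comparison with Arp2, while the ratios between libraries do not use length.

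Single subunits of the complex went in different directions. *arpc3*, which encodes a small peripheral subunit (chromosome 21, 16987366 to 16992828, GRCz10), was at 92.0 against 136 CPM, 1.48-fold lower (1.33 to 1.65), the lowest ratio among the 13. *add1* ends at position 2042174 of the same chromosome. *arpc2*, which forms part of the core of the complex, was at 240 against 205 CPM, a ratio of 1.17 (1.09 to 1.26). Per length, *arpc3* was above *arpc2* in the sibling library (165 and 131 FPKM) and below it in the mutant library (111 and 154 FPKM). *arpc5a* was at 135 against 161 CPM and *arpc5lb* at 28.4 against 39.1 CPM, both genes of the subunit that links Arp2 to the rest. Their paralog *arpc5la* stayed below the minimum, with 38 against 10 counts, and made up 4.84% against 1.12% of the summed FPKM of the 4 *arpc5* genes. The pair *arpc1a* and *arpc1b*, neighbours on chromosome 3, divided their reads alike in both libraries, with *arpc1b* at 68.1% against 71.0% of their summed FPKM.

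The nucleation promoting factors, which switch on the Arp2/3 complex, had 5 genes measured, 2 of them at least 2-fold higher, where 10.1% of all measured genes were. Of the 5 factors, *wasa* and *waslb* reached the minimum through the mutant library alone, which fixed a ratio above 1. The other 3, *wasf3b*, *cttn* and *wasf2*, also lay above 1, as did 60.8% of all measured genes, and stayed above 1 with TMM scaling, as did 43.9%. Together the 10 genes summed to 150 against 84.4 CPM, a ratio of 1.78 (1.59 to 1.98). This value depends on the pattern, which leaves out 4 genes now named as subunits of the WASH complex, an endosomal activator. All 4 had ratios below 1, with *washc2c* at 90.7 against 109 CPM, *WASHC4* at 19.6 against 38.2 CPM and *WASHC5* within counting error. *wasf3b*, a WAVE gene (chromosome 24, 21395668 to 21433091), was at 61.8 against 25.5 CPM, a ratio of 2.42 (2.005 to 2.94), and held 81.9% against 74.3% of the FPKM of the WAVE genes. *cttn* encodes cortactin, which binds and steadies branches, and was at 37.8 against 18.4 CPM, a ratio of 2.06 (1.63 to 2.60). Its span overlaps that of *taldo1*, and the division of reads between them is uncertain. *wasf2*, the broadly used WAVE gene, was at 18.1 against 11.7 CPM, and *wasa*, a gene of the blood cell activator WASP, at 12.4 against 7.47 CPM. The other WASP gene, *wasb*, pointed the other way below the minimum, with 30 against 42 counts. *waslb*, an N-WASP gene, was at 10.4 against 9.26 CPM, within counting error. *wasf1* and *wasf3a* had 0 counts in both libraries, *wasla* had 3 against 1, and *wash1*, of an endosomal activator complex, had 24 against 32 counts. Summed markers of muscle, epidermis and nervous tissue were also higher in the mutant library, and their part in these values was not tested.

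Of the 2 formins of the set, 1 had a ratio below 1 and 1 above. *diaph3*, a formin with roles in cell division in mammals, was at 9.07 against 17.9 CPM, 1.97-fold lower (1.41 to 2.78). It reached the minimum through the sibling library alone, which fixed a ratio below 1. *diaph2* was at 24.8 against 19.8 CPM, a ratio of 1.25 (0.98 to 1.61), within counting error. The value of *diaph3* just missed 2-fold with library totals and passed it with TMM.

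Among barbed-end cappers, the 9 measured genes had ratios above 1, where 60.8% of all measured genes did. For *twf2a*, *eps8* and *capgb* this was fixed by the minimum, which they reached through the mutant library alone. With TMM scaling 6 of 9 lay above 1, beside 43.9% of all measured genes, and the 3 CapZ genes lay below 1. A capper relative known only by its current symbol, *eps8l1b*, went the other way, at 11.8 against 17.1 CPM, a ratio of 0.689 (0.502 to 0.941). CapZ is a heterodimer of an alpha and a beta subunit, and the 3 CapZ genes summed to 887 against 805 CPM, a ratio of 1.102 (1.06 to 1.15). *capzb* (chromosome 22, 97120 to 111800) was at 476 against 421 CPM, *capza1b*, whose span overlaps that of *cttnbp2nlb*, at 239 against 217 CPM and *capza1a* at 172 against 168 CPM. The alpha genes together stood at 1.12 times the FPKM of the beta gene in the mutant library and 1.19 times in the other. The CapZ median log2 ratio was 0.14, beside 0.13 for all genes, and -0.06 with TMM scaling, beside -0.08.

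The cappers outside CapZ were scarcer and further apart. Gelsolins cut filaments and then cap them, and the 5 genes of the family that the name pattern holds summed to 103 against 52.8 CPM, a ratio of 1.94 (1.70 to 2.23). This value depends on the pattern: with the relatives *scin*, *scinla*, *scinlb* and *avil*, which it leaves out, the family summed to 248 against 241 CPM, a ratio of 1.03 (0.955 to 1.11). Of these *scin* was higher (26.9 against 1.14 CPM), *scinlb* lower (43.7 against 96.8 CPM) and *scinla* at 74.4 against 90.5 CPM. For *scin* a ratio above 1 was fixed by the minimum, which it reached through the mutant library alone. *gsna* (chromosome 21, 17535785 to 17566546) was at 61.3 against 24.8 CPM, a ratio of 2.47 (2.04 to 2.999), and *gsnb* at 27.7 against 18.7 CPM, a ratio of 1.48 (1.16 to 1.90). *gsna* passed 2-fold and its paralog did not. *capgb*, a gelsolin relative that caps without cutting, was at 12.3 against 8.93 CPM, within counting error, as was the twinfilin *twf1b* at 14.8 against 11.5 CPM. *twf2a*, also a twinfilin, a protein that binds monomers and caps barbed ends, was at 19.1 against 7.15 CPM, a ratio of 2.68 (1.88 to 3.88), and shares part of its span with *wdr82*. *eps8*, which encodes a capper and bundler, was at 12.6 against 6.496 CPM, a ratio of 1.94 (1.304 to 2.92). The 6 cappers below the minimum had between 2 and 35 counts in the mutant library, *capga* (2 against 0), *twf2b* (3 against 0) and *vil1*, the villin of gut brush borders (6 against 2), among them.

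Cappers and nucleators compared in this way differed by 0.31 in their median log2 ratio, 0.42 for 9 cappers and 0.11 for 20 nucleators. No test of this difference was possible. The capper median is the value of *capgb*, whose ratio of 1.37 (0.954 to 1.98) was within counting error. Its direction was fixed by the minimum. Over all members, measured or not, cappers summed to 1047 against 892 CPM, a ratio of 1.17 (1.13 to 1.22), and nucleators to 1637 against 1622 CPM, a ratio of 1.01 (0.981 to 1.04). Summed capper counts were thus 0.639 of summed nucleator counts per library size in the mutant and 0.55 in the siblings. The difference of medians fell to 0.17 when a gene had to reach 10 CPM in both libraries, and to 0.03 with CapZ as the sole capper. With *scin*, *scinla*, *scinlb* and *avil* among the cappers, a choice made after the data were seen, it was 0.26, and the summed ratio of cappers was 1.103 (1.07 to 1.14). Each class was itself mixed. Summed ratios were 1.78 for the 10 promoting factors of the pattern, which leaves out the WASH subunit genes, and 0.969 for the Arp2/3 genes. They were 1.94 for the 5 gelsolin genes of the pattern (1.03 with their 4 relatives) and 1.102 for CapZ.

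**Figure D4:**
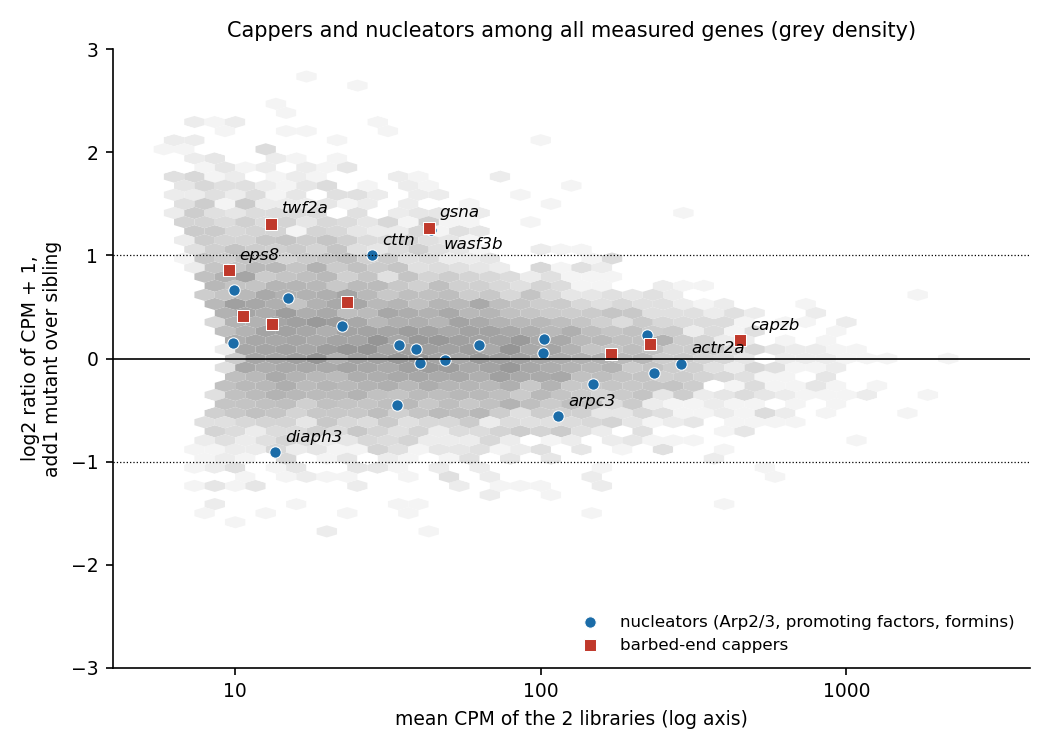
Log2 ratio of CPM + 1, mutant over sibling library, against mean CPM (log axis) for measured cappers (red squares) and nucleators (blue circles) over the density of all measured genes (grey hexagons on a log shade, ratios beyond 3 not drawn); dotted lines mark 2-fold. The CapZ genes stand at the right near 0. Arp2/3 genes reach from the right down to the level of *gsna* and *wasf3b*, most of them near 0 and *arpc3* the lowest. The higher cappers and promoting factors stand in the middle and at the left, where all genes spread more. The circle of *wasf3b* is mostly hidden by the square of *gsna*.

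Elongation factors of the Ena/VASP family keep barbed ends growing by holding cappers off. *enah* (chromosome 20, 36517068 to 36714434) had the lowest ratio of the 62 measured genes, at 6.88 against 22.7 CPM, 3.303-fold lower (2.32 to 4.80). It reached the minimum through the sibling library alone, which fixed a ratio below 1. Its share of the family's FPKM was 5.81% against 20.1%. *vaspb* was at 14.4 against 9.42 CPM, a ratio of 1.53 (1.09 to 2.18), and *evla* did not differ beyond counting error, at 17.6 against 17.9 CPM. For *vaspb* a ratio above 1 was fixed by the minimum, which it reached through the mutant library alone. Below the minimum *evlb* had 43 against 24 counts and *vaspa* 7 against 17. The family summed to 11.8 against 11.3 FPKM and to 47.3 against 56.7 CPM.

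Among monomer binders, the profilins, which load monomers for growth, differed in direction. *pfn1* was at 752 against 936 CPM, 1.24-fold lower (1.196 to 1.29), and *pfn2* at 112 against 137 CPM, 1.22-fold lower (1.103 to 1.36). *pfn2l* (chromosome 2, 10349209 to 10354019) was at 223 against 110 CPM, a ratio of 2.03 (1.84 to 2.22). It thereby made up 20.5% (19.6 to 21.5) of profilin counts in the mutant library, against 9.32% (8.67 to 10.02). Summed profilin was at 299 against 340 FPKM. *tmsb4x*, at 373 against 356 CPM, and *cap1*, a cyclase-associated protein that recycles monomers, at 55.7 against 58.9 CPM, stayed within counting error, while *cap2* was at 27.0 against 20.3 CPM. The span of *pfn1* overlaps that of *eif4e2rs1*.

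Genes of filament disassembly differed among paralogs. *coro1a*, a coronin of blood cells, was at 124 against 225 CPM, 1.82-fold lower (1.67 to 1.997), and held 54.9% against 71.2% of coronin FPKM. *coro2a* was at 18.1 against 5.03 CPM, a ratio of 3.602 (2.397 to 5.56), the highest among the 48 measured genes with an actin role. It reached the minimum through the mutant library alone, which fixed a ratio above 1. *coro1cb* was at 28.5 against 14.8 CPM, a ratio of 1.93 (1.49 to 2.52), while its paralog *coro1ca* stood at 194 against 202 CPM and *coro1b* at 15.1 against 13.3 CPM, both within counting error. Of the cofilins, which sever filaments, *cfl1l* (chromosome 13, 33497194 to 33499882) was at 49.7 against 24.2 CPM, a ratio of 2.05 (1.68 to 2.52), and *cfl1* was within counting error at 38.3 against 35.4 CPM. *cfl1l* held 67.8% against 51.6% of cofilin FPKM. Its span overlaps that of *macrod2*. *cfl2*, the muscle cofilin, was below the minimum and had 20 against 32 counts. *wdr1*, which helps cofilin, also stayed below it, with 28 against 38 counts.

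**Figure D5:**
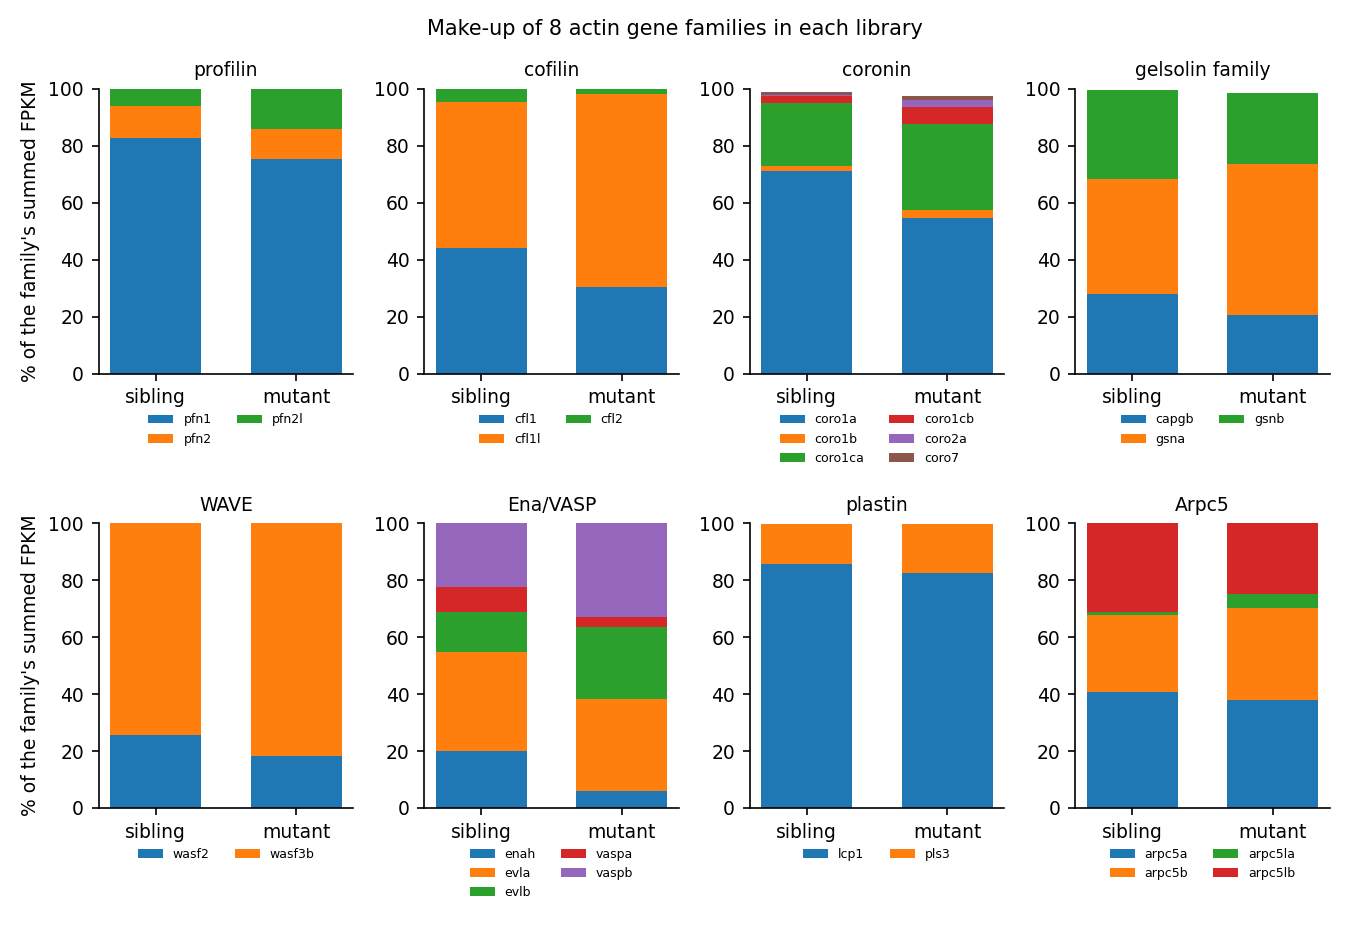
Share of each family's summed FPKM held by its members in the sibling and the mutant library, for 8 families; members averaging 1% or less of a family are not drawn. *pfn2l*, *cfl1l* and *gsna* hold more of their families in the mutant library, and *enah* and *coro1a* less.

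Of the crosslinkers and bundlers, 0 of 3 measured passed 2-fold, where 10.1% of all measured genes were higher and 2.56% lower. *lcp1*, L-plastin, a bundler of leukocytes, was at 284 CPM in both libraries, a ratio of 1.001 (0.936 to 1.07). *coro1a*, the other gene of the set known as a leukocyte marker in zebrafish, was lower, and the leukocyte list was itself mixed: *lyz* was at 41.5 against 192 CPM, *mpx* at 21.3 against 59.6 CPM and *spi1b* at 115 against 67.1 CPM. *pls3*, a plastin of many tissues, was at 55.6 against 43.4 CPM, and *actn1*, an alpha-actinin, at 18.0 against 27.4 CPM, 1.53-fold lower (1.19 to 1.97). The filamin genes *flna* (5 against 15 counts) and *flnbl* (25 against 20) and the plastin *pls1* (9 against 8) stayed below the minimum.

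The genes matched by name alone had 14 of 32 measured, 1 higher and 0 lower, where 10.1% and 2.56% of all measured genes were. *plekhn1* had 103 against 1 count, 17.3 against 0.162 CPM, and a ratio of 106 with an interval from 18.7 to 4246. *plekho1a*, below the minimum and so not called, had 35 against 0 counts. This is 12.1-fold higher against a floor of 3 counts in the sibling library, and its counting interval began at 9.30. *plek*, the platelet protein pleckstrin, was at 26.5 against 47.4 CPM, 1.79-fold lower (1.47 to 2.18), beside lower values of the thrombocyte markers *gp9* (29.4 against 69.3 CPM) and *gp1bb* (25.4 against 46.8 CPM), while *itga2b*, of the same list, was higher (28.7 against 10.2 CPM). *plekhg7* was at 11.9 against 22.9 CPM and *plekho1b* at 7.72 against 11.9 CPM, while *plekhh1* (10.7 against 8.12 CPM) and *plekha1a* (19.0 against 14.8 CPM) were within counting error.

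Actin genes outside the name pattern, 77 in lists of actins, tropomyosins, adducins, other formins, activator partners, severing proteins and transcriptional regulators, had 43 measured, of which 10 were higher and 4 lower by 2-fold (23.3% and 9.30%, beside 10.1% and 2.56% of all measured genes). With TMM scaling 8 and 4 of 43 were, beside 7.05% and 4.52% of all measured genes, with *tpma* and *nck1a* dropping out. Of the actins, the muscle genes *acta1a*, which is also in the muscle list (861 against 232 CPM), *actc1a* (409 against 152 CPM) and *actc1b* (3624 against 1428 CPM) were higher. The cytoplasmic *actb1* (1407 against 2016 CPM) and *actb2* (1121 against 1336 CPM) were lower by less than 2-fold. Tropomyosins *tpm2* (702 against 164 CPM) and *tpma* (583 against 254 CPM) were higher, in a library where 16 of 24 muscle markers were higher, and the part of muscle RNA was not tested. The lower genes were *add1* itself, *tmod4*, a tropomodulin that caps pointed ends (73.0 against 209 CPM), *abi3a*, of the Abi family of WAVE partners (4.03 against 11.0 CPM) and the gelsolin relative *scinlb* given above. Of these *add1* and *abi3a* reached the minimum through the sibling library alone.

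Other adducin genes differed in direction. *add2* was at 201 against 337 CPM, 1.67-fold lower, and *add3a* at 36.8 against 24.8 CPM. Of 13 measured partners of the activators 3 were higher and 1 lower, where 10.1% and 2.56% of all measured genes were. With TMM scaling 2 were higher, without *nck1a*, where 7.05% of all measured genes were. The higher ones with library totals were *abi2a* (ENSDARG00000058207), a WAVE complex subunit, at 21.7 against 2.11 CPM, *nck1a* at 29.2 against 13.3 CPM and *nck2a*, both adaptor genes, at 15.1 against 5.52 CPM. This *abi2a* gene and *nck2a* reached the minimum through the mutant library alone. Another gene named *abi2a* (ENSDARG00000098022), whose span overlaps it, was below the minimum with 15 against 9 counts, a ratio of 1.72 (0.706 to 4.47). Of the other formins, *daam1a* was at 12.6 against 3.90 CPM, and it too reached the minimum through the mutant library alone.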

How the data were processed

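The labels' protocols name the SMART-Seq HT kit and a BGISEQ-500 sequencer. The kit copies and amplifies RNA as cDNA without molecular identifiers, so PCR copies count as reads. The authors deposited raw counts and FPKM per gene for each library, on GRCz10 according to the submitters' processing notes. No aligner, counter, strand setting or filter is given in the sources used here. Here counts were divided by library totals to give CPM, and log2 ratios use CPM + 1. edgeR 4.0.16 in R 4.3.3 gave scaling factors only (TMM: 1.07 and 0.932), and the rest was done in Python 3.11.15. Ratios have exact (Clopper-Pearson) 95% intervals. A fold difference against 0 counts uses a floor of 3, or 0.487 CPM in the sibling library, and is not a bound of the interval. The calling rule was tried on simulated counts with counting error only, and with changes larger than 2-fold placed in genes above 50 CPM. That trial does not cover 2-fold calls of scarce genes or variation from PCR.

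Of the 105 gene IDs, 102 were in the name table used. Named are genes past 2-fold, the gene with the highest mean FPKM and up to 3 more with large ratios in each role, up to 6 genes matched by name alone, and other pathway genes past 2-fold. Other genes named, among them *actb1*, *add2*, *wasb*, single markers and most genes below the minimum, were chosen after their values were seen, as were the families. The genes, roles and lists were chosen with earlier results of these data known, and 1 list is not reported here. Alternatives were other scalings, pseudocounts, minimums, fold rules, FPKM and other member definitions.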

Additional observations from a re-analysis of the deposited data

How the results depend on the processing

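How many genes passed 2-fold (8 higher, 1 lower) varied with the rule. TMM, median-of-ratios and upper quartile scaling each gave 5 higher and 5 lower of 61. Totals that leave out globin, mitochondrial and ribosomal protein genes gave 5 higher of 62. A pseudocount of 5 gave 4 higher of 62, and no minimum 13 and 2 of 100. A minimum of 50 CPM gave 3 and 0 of 25, the minimum in both libraries 5 and 0 of 50, and FPKM 3 and 0 of 33. A 1.5-fold rule gave 12 and 5 of 62. Shares of all genes are given for library totals and TMM only, so the other counts have no background beside them. Stricter minimums test fewer genes by construction. The nucleator median of 0.11 changed sign with TMM, median-of-ratios and upper quartile scaling (-0.11 each), which shift all genes, and with the Arp2/3 complex alone (-0.015). With 1 setting changed at a time, the capper median stayed above 0, from 0.14 with CapZ alone to 0.45 with a pseudocount of 0.1. The 0.14 stands beside 0.13 for all genes, and CapZ alone with TMM scaling was at -0.06. In the main setting the minimum fixed the direction of the cappers *twf2a*, *eps8* and *capgb*. Cappers minus nucleators also stayed positive under these single changes, from 0.03 with CapZ alone to 0.43 with the Arp2/3 complex alone. The other scalings shift both medians nearly alike, so they are no check on the sign of this difference. Genes found through current symbols, an alternative chosen after seeing the data, gave 0.36, and cappers with *scin*, *scinla*, *scinlb* and *avil*, chosen likewise, 0.26. Of 280 values for 40 named genes under 7 settings, 248 stayed within the counting interval and 32 moved beyond it. These counts are no measure of robustness. TMM, median-of-ratios and upper quartile scaling shift all genes by nearly the same amount, and the interval is wider for scarcer genes. Among genes past 2-fold 0 changed sign, which is no check, since these genes lie far from 0 beside the shift from scaling. Some named genes that were not past 2-fold did change sign with TMM scaling. The log2 ratio of *capzb* went from 0.18 to -0.03, that of *tmsb4x* from 0.07 to -0.13 and that of *cfl1* from 0.11 to -0.09. The minimum of 10 CPM is 59.6 counts in the mutant library, which limits the scarce genes. No paired analysis was possible because each group has 1 library.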

Other observations

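A further 25 genes match the pattern only without regard to case or through the current symbol of their gene ID, and were looked at after the data were seen. The gene now named *actn4*, an alpha-actinin of non-muscle cells, has no name in the table and was at 76.5 FPKM in the mutant and 69.2 FPKM in the sibling library, or 103 against 93.2 CPM. Per length it stood above *lcp1* in both libraries, but by CPM *lcp1* was higher, at 284 in both. The FPKM imply lengths of 1347 bases for this gene and 4591 bases for *lcp1*, so the order per length depends on the gene models. The gene now named *tmsb1*, a further thymosin beta, was at 60.1 against 41.7 CPM. The 4 genes whose IDs now carry the names of subunits of the WASH complex, which activates Arp2/3 on endosomes, had ratios below 1, as did 39.2% of all measured genes: *WASHC4* at 19.6 against 38.2 CPM, *WASHC3* at 11.9 against 18.2 CPM, *WASHC5* at 22.8 against 27.9 CPM and *washc2c* at 90.7 against 109 CPM. None of the 4 passed 2-fold, where 10.1% of all measured genes were higher and 2.56% lower. *wash1* itself had 24 against 32 counts. The ratio of *WASHC5*, 0.817 (0.648 to 1.03), was within counting error. The gene now named *eps8l1b*, a relative of the capper *eps8*, was at 11.8 against 17.1 CPM, a ratio of 0.689 (0.502 to 0.941), opposite to the 9 measured cappers of the name pattern.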
